A study of Mus musculus with 48 samples.

Results

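The 10 genes described here mark leukocytes that can enter the brain from the blood. They were taken by name from the 55357 genes of the count table. Cd3e, Cd3g, Cd8a and Trbc2 belong to the T cell receptor and its co-receptor, Ms4a4b is a membrane protein of T cells, Nkg7 and Gzmb belong to the granules of cytotoxic lymphocytes, and Ccr2, Ly6c2 and Plac8 mark inflammatory monocytes. Wild-type C57BL/6J mice received 1 injection of kainate, a glutamate receptor agonist that sets off status epilepticus, or of saline into the hippocampus on 1 side. The series record gives an age of 6 to 8 weeks, and the methods of the study give an older range. The dorsal dentate gyrus on the injected side (epileptogenic zone, EZ) and on the other side (peri-ictal zone, PIZ) was dissected 3, 7 or 14 days later, so the 24 mice gave 48 libraries in 12 groups of 4. Each group held 2 male and 2 female mice, the sex of each mouse was not labelled, and every mouse carried a needle track through the EZ side, with saline or with kainate.

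In the healthy brain T cells and monocytes are scarce and stay mostly in vessels, meninges and choroid plexus. Monocytes leave the bone marrow and are drawn to injured tissue by Ccl2 and related chemokines through the receptor Ccr2, whereas activated T cells cross the vessel wall and cytotoxic cells kill through granule proteins such as granzyme B. The libraries held 17762656 to 25712975 counts each (median 22108562). At that depth only Trbc2, Ms4a4b, Ccr2, Ly6c2 and Plac8 passed the filter on low counts, which asks for about 10 counts in at least 4 libraries and which they could pass through the groups in which they were high. Cd3e, Cd3g, Cd8a, Nkg7 and Gzmb did not pass, with 81 to 139 counts each over all 48 libraries. For that reason raw counts lead the description, and CPM (counts scaled by TMM factors and library size) and differentially expressed gene (DEG) calls follow. The comparisons below ask what kainate changed on each side during the latent period before seizures recur. Granule cell genes, among them Prox1 and Dgkh, were counted in every group. In bulk tissue fewer cells of a type and less RNA per cell cannot be told apart.

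A count for Ly6c2 or Trbc2 can come from a neighbouring gene that is almost the same, so their coding sequences are shown first. Ly6c1, which endothelial cells express, and Ly6c2 lie on the same strand of chromosome 15 and matched over 97.7% of 393 coding bases. The first 120 coding bases of each, in GRCm39 and from the Gencode M39 annotation, hold 6 of their 9 differences, written in capitals.
Ly6c1: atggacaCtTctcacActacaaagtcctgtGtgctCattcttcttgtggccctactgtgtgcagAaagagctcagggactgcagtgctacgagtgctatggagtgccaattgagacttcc
Ly6c2: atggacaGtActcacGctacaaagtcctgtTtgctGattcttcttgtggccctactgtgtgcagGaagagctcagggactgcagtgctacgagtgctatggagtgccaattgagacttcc
Trbc1 and Trbc2 encode the alternative constant regions of the T cell receptor beta chain, lie on chromosome 6 and matched over 95.6% of 518 coding bases. Their last 120 coding bases hold 19 of 23 differences.
Trbc1: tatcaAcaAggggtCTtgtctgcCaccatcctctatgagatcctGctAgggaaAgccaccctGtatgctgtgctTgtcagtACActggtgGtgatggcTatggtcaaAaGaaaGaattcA
Trbc2: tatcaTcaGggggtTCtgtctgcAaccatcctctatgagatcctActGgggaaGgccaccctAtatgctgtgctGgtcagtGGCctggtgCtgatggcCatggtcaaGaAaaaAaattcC
Stretches without capitals are the same in both genes and cannot assign a read on their own. Of all 36-base words in the transcripts of Ly6c2, 47.8% also occurred in another gene, mostly Ly6c1, and the share was 47.3% for Trbc2, all with Trbc1. It was 6.5% for Ms4a4b, 3.6% for Plac8, 2.9% for Ccr2, 1.0% for Gzmb, 0.5% for Cd8a and 0.1% for Cd3g, and no word of Cd3e or Nkg7 was shared. The Ly6c2 and Trbc2 counts are therefore uncertain, and those of the other members rest almost entirely on words of their own.

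Cd3e (ENSMUSG00000032093.8, chromosome 9, 44910037 to 44920925) and Cd3g (ENSMUSG00000002033.15, chromosome 9, 44880870 to 44891735) lie near each other on the minus strand. Trbc2 (ENSMUSG00000076498.3) spans 41523664 to 41525286 on chromosome 6, and Cd8a (ENSMUSG00000053977.14) spans 71350411 to 71356157 on the same chromosome. Nkg7 (ENSMUSG00000004612.10) lies on chromosome 7 at 43086497 to 43087678, Gzmb (ENSMUSG00000015437.6) on chromosome 14 at 56496295 to 56499717, and Ms4a4b (ENSMUSG00000056290.17) on chromosome 19 at 11412557 to 11444419. Ccr2 (ENSMUSG00000049103.15) lies on chromosome 9 at 123901982 to 123913594, Ly6c2 (ENSMUSG00000022584.15) on chromosome 15 at 74980003 to 74988467, and Plac8 (ENSMUSG00000029322.13) on chromosome 5 at 100701591 to 100720111. All positions are those of GRCm39.

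**Figure D1:**
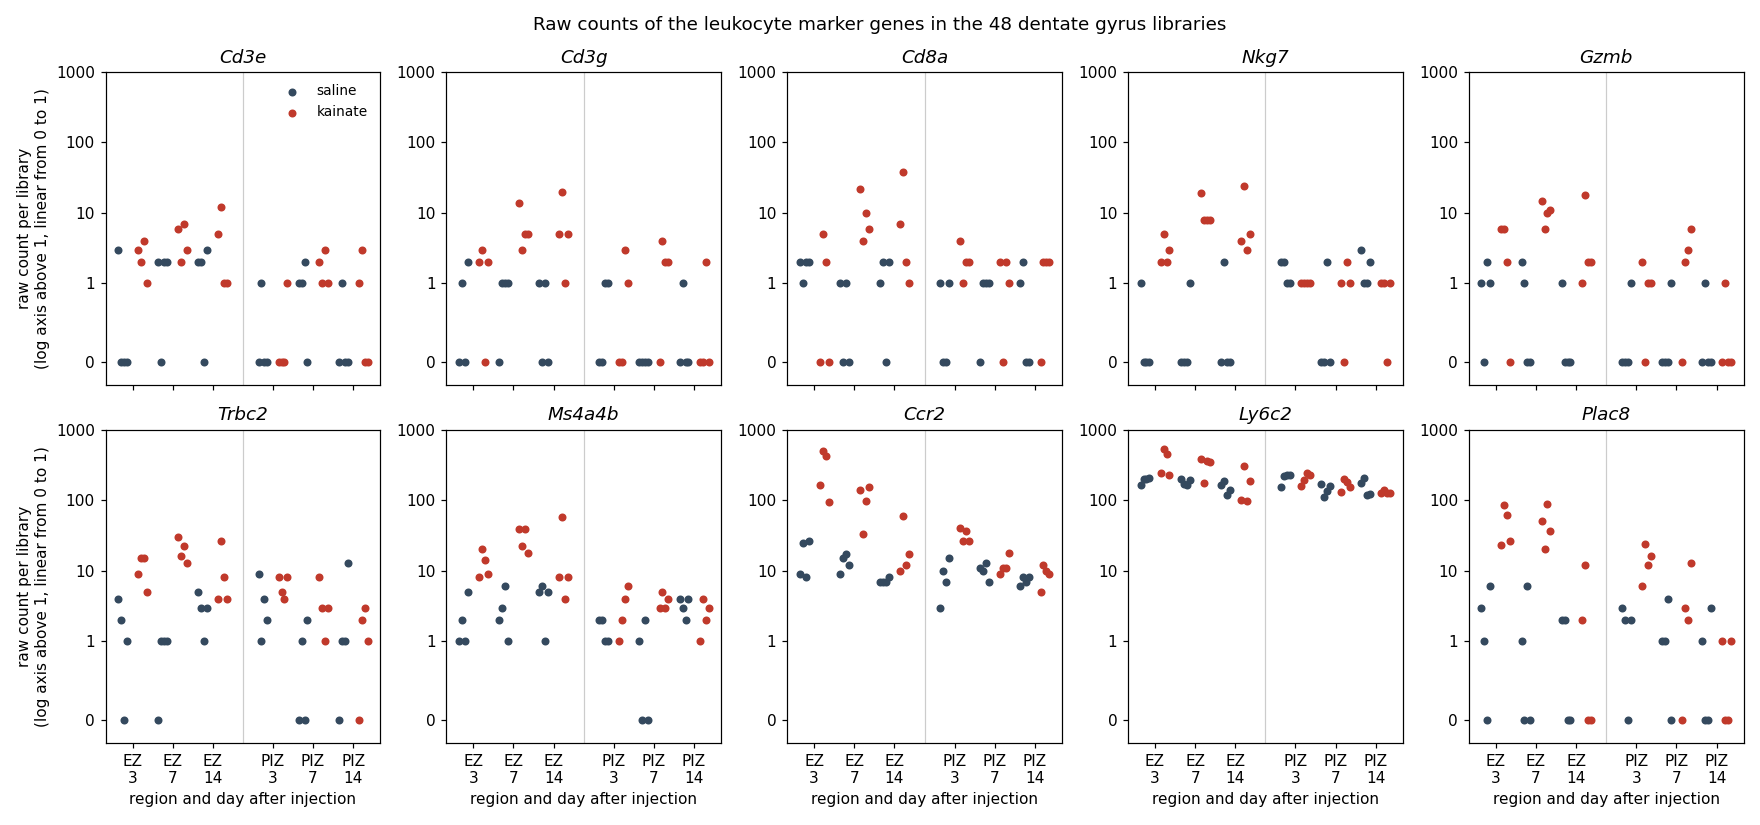
Raw counts of the 10 genes in each of the 48 libraries, by region (EZ, PIZ) and day after injection on the x axis, with saline libraries in blue and kainate libraries in red. The y axis is logarithmic above 1 and linear from 0 to 1. Ccr2 reached 493 counts and Plac8 84 counts in the EZ 3 days after kainate, the lymphocyte genes were at most 5 counts in most saline libraries, and Ly6c2 was above 96 counts in every library.

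Ccr2 and Plac8 were upregulated in the EZ 3 and 7 days after status epilepticus was induced. Ccr2, the chemokine receptor that monocytes follow into tissue, had 493, 163, 95 and 428 counts in the 4 kainate libraries of day 3 (mice 38, 30, 44 and 42) and 25, 8, 9 and 26 counts in the saline libraries. The lowest kainate library held over 3 times the counts of the highest saline library, and the kainate libraries differed among themselves more than the saline ones. The mean was 11.2 ± 7.16 CPM with kainate (SD, n = 4), and Ccr2 was 14.1-fold higher than in saline (log2 fold change 3.82, standard error (SE) 0.46, edgeR adjusted p = 8.96e-08). Plac8, a small cysteine-rich protein of myeloid cells, had 84, 23, 26 and 62 counts in the same kainate libraries and 1, 0, 3 and 6 counts in saline, again without overlap. Its log2 fold change was 3.95 (SE 0.81, adjusted p = 1.35e-04). Both were DEG under each alternative tried, including every omission of 1 mouse.

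At day 7 the Ccr2 counts were lower and the Plac8 counts about the same as at day 3. Ccr2 had 33, 98, 138 and 152 counts with kainate (mice 23, 26, 21 and 35) and 12, 15, 9 and 17 with saline, which gave a fold change on the log2 scale of 2.75 ± 0.47 (SE, adjusted p = 6.40e-06). Plac8 had 20, 89, 51 and 37 counts with kainate and 0, 0, 1 and 6 with saline, with a fold change on the log2 scale of 4.48 ± 0.86 (SE, adjusted p = 3.37e-05). Mouse 23 was the lowest of the 4 kainate mice for both genes. Between days 3 and 7 the kainate effect changed by -1.07 for Ccr2 (SE 0.65, adjusted p = 0.553) and by 0.53 for Plac8 (SE 1.32, adjusted p = 0.921). Neither change passed the threshold.

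Ly6c2, a surface antigen at high level on inflammatory monocytes, had a different baseline. Its counts lay between 110 and 227 in the 24 saline libraries, whereas Ccr2 did not exceed 26 and Plac8 did not exceed 6 there. Per kilobase of exon, Ly6c2 stood at 2.86 ± 0.374 CPM in saline EZ libraries of day 7 and Ccr2 at 0.0943 ± 0.0263 (SD, n = 4). In the EZ at day 3 the Ly6c2 counts were 527, 241, 224 and 447 with kainate and 202, 202, 165 and 205 with saline, and scaled to CPM the groups overlapped. The log2 fold change was 0.63 (SE 0.24, adjusted p = 0.0315) at day 3 and 0.57 (SE 0.24, adjusted p = 0.0421) at day 7, and neither passed the threshold for a DEG. Its near copy Ly6c1 held 698 to 835 counts in saline and 723 to 1578 in kainate libraries of the EZ at day 3, with a fold change on the log2 scale of 0.31 ± 0.21 (SE, adjusted p = 0.231). Ly6a, another member of the family on the same chromosome, was a DEG at day 3 with a fold change on the log2 scale of 1.04 ± 0.26 (SE, adjusted p = 0.00101). How many Ly6c2 counts came from monocytes and how many from reads of Ly6c1 was not tested.

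Of the members that code for lymphocyte proteins, Ms4a4b and Trbc2 had counts enough for the test, and both were upregulated at day 7. Ms4a4b had 22, 39, 39 and 18 counts in the kainate EZ libraries of day 7 (mice 23, 26, 21 and 35) and 1, 3, 2 and 6 counts in saline. Trbc2, the constant region of the T cell receptor beta chain, had 16, 22, 30 and 13 counts with kainate against 1, 1, 0 and 1 with saline. For both genes every kainate library was above every saline library. The log2 fold change was 3.04 for Ms4a4b (SE 0.59, adjusted p = 4.21e-05) and 4.36 for Trbc2 (SE 0.85, adjusted p = 4.71e-05). The 4 saline libraries summed to only 3 Trbc2 counts, and the ratio of summed counts, scaled to CPM, was 23.7 with an exact 95% interval of 7.82 to 117 that covers counting error alone. Trbc1 had 4 to 11 counts with kainate and 0 to 1 with saline at the same time.

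At day 3 the same genes were lower and less certain. Ms4a4b had 20, 8, 9 and 14 counts with kainate and 2, 1, 1 and 5 with saline, and Trbc2 had 15, 9, 5 and 15 against 2, 0, 4 and 1. Groups did not overlap for either gene. Ms4a4b was a DEG with a fold change on the log2 scale of 2.18 ± 0.66 (SE, adjusted p = 0.0062), but the call was lost when mouse 38, 29, 37, 42 or 18 was left out, with adjusted p = 0.0335, 0.0192, 0.0274, 0.0136 and 0.0285 in turn. Trbc2 missed the threshold with a fold change on the log2 scale of 2.31 ± 0.79 (SE, adjusted p = 0.0143) and passed it without mouse 18 (log2 fold change 3.03, adjusted p = 0.00887). From day 3 to day 7 the kainate effect changed by 0.86 for Ms4a4b (SE 0.99, adjusted p = 0.793) and by 2.04 for Trbc2 (SE 1.34, adjusted p = 0.581).

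In the EZ, 3 of the 10 members were DEG at day 3 (Ms4a4b, Ccr2 and Plac8), 4 at day 7 (with Trbc2) and 0 at day 14, all upregulated. Among all 21390 genes tested, 16.1% were upregulated in the EZ at day 3, 20.6% at day 7 and 2.32% at day 14. At an unadjusted p under 0.05, all 5 tested members passed at day 3 and at day 7, and 3 at day 14, where 53.9%, 61.4% and 18% of all genes did. At day 14 limma-voom called 0 members and 0 genes of any kind. DESeq2 called 0 members there and 733 genes in all, and gave no adjusted p for the 5 members below the filter.

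Ordered by mean CPM over the 12 groups, Ccr2 was highest in the kainate EZ at day 3 (4.0 to 18.9 CPM), then in the kainate EZ at day 7 (1.68 to 6.31), the kainate PIZ at day 3 (1.04 to 1.72) and the kainate EZ at day 14 (0.504 to 2.67), and each range overlapped with the next. Plac8 led with the kainate EZ at day 7 (1.02 to 3.47 CPM) and day 3 (0.880 to 3.21), followed by the kainate PIZ at day 3 (0.246 to 0.970). Ms4a4b was highest in the kainate EZ at day 7 (0.747 to 1.53 CPM), day 14 (0.225 to 2.58) and day 3 (0.306 to 0.765), and the last of these lay above the whole range of the group that followed, the saline EZ at day 14 (0.0492 to 0.300). Trbc2 had the same first group (0.539 to 1.18 CPM), with overlap between all neighbours in its order. For all 4 genes the kainate EZ groups of days 3 and 7 stood among the first 3 groups.

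**Figure D2:**
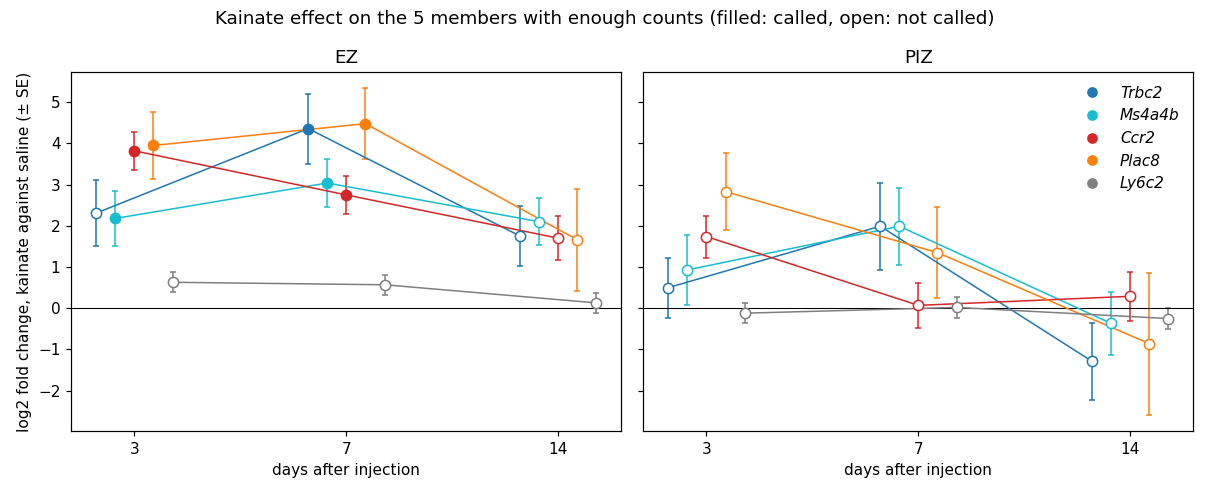
Log2 fold change of kainate against saline (points, with SE as bars) for the 5 members that passed the filter, in the EZ (left) and PIZ (right) at 3, 7 and 14 days on the x axis, with filled points for DEG and open points otherwise. Filled points are Ms4a4b, Ccr2 and Plac8 at day 3 and these with Trbc2 at day 7 in the EZ, and all points of the PIZ are open.

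The 5 members below the filter were examined in raw counts, and the cytotoxic genes separated the EZ groups at day 7. Nkg7, a protein of cytotoxic granule membranes, had 8, 8, 19 and 8 counts with kainate and 1, 0, 0 and 0 with saline at day 7. Gzmb, which encodes granzyme B, had 6, 10, 15 and 11 counts with kainate and 0, 1, 2 and 0 with saline. Cd8a, the co-receptor chain of cytotoxic T cells, had 4, 10, 22 and 6 counts with kainate and 0, 0, 1 and 1 with saline. None of these groups overlapped, and mouse 21 held the highest count of each. Gzmc, a related granzyme, had 5 to 17 counts with kainate and 0 to 1 with saline. Summed over 4 libraries the ratio was 37.7 for Nkg7 (exact 95% interval 6.42 to 1524), 12.3 for Gzmb (3.93 to 61.9) and 18.4 for Cd8a (4.79 to 157).

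The CD3 chains, which carry the signal of the T cell receptor, were the lowest. Cd3g had 3, 5, 14 and 5 counts with kainate and 1, 1, 0 and 1 with saline at day 7, a ratio of 7.90 (2.43 to 40.7). Cd3e had 2, 7, 6 and 3 counts with kainate and 2, 0, 2 and 2 with saline, with overlap and a ratio of 2.63 (1.0 to 8.10). The exact permutation test of CPM gave p = 0.0286, the smallest that 4 mice against 4 allow, for Cd3g, Cd8a, Nkg7 and Gzmb at day 7 and p = 0.0857 for Cd3e. At day 3 only Nkg7 was separated in the EZ, with 5, 2, 3 and 2 counts against 0, 0, 1 and 0 (exact p = 0.0286), and Cd8a had 5, 0, 0 and 2 counts against 1, 2, 2 and 2 (exact p = 0.857). Of 30 exact tests, 5 genes in 6 comparisons, 8 reached the smallest p, and all 8 were in the EZ. They are the ones above at 0.0286 and Cd3g, Nkg7 and Gzmb at day 14. The share of all genes that separated in this way was not computed. By the edgeR test 53.9%, 61.4% and 18% of all genes had an unadjusted p under 0.05 in the EZ at days 3, 7 and 14.

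A fit that kept every gene with a count called Cd8a, Nkg7 and Gzmb at day 7, with adjusted p of 0.00167, 2.88e-05 and 0.00192, and Cd3g had an adjusted p of 0.018. In that fit 7 members were DEG at day 7, 2 at day 3 (Ccr2 and Plac8) and 1 at day 14 (Nkg7, adjusted p = 0.0025). The background in it was 10.2% of 42145 genes upregulated at day 7, 7.69% at day 3 and 1.24% at day 14.

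At day 14 most of the lymphocyte signal lay in 1 mouse. Ms4a4b had 57 counts in mouse 27 and 4, 8 and 8 in mice 36, 14 and 40, against 5, 6, 5 and 1 in saline. Cd8a had 38 counts in mouse 27 and 2, 7 and 1 in the others, and Cd3g had 20 against 1, 5 and 5. Nkg7 had 24 counts against 3, 4 and 5, and Gzmb had 18 against 2, 1 and 2. Trbc2 had 26 counts against 8, 4 and 4, and Cd3e had 12 against 1, 5 and 1. Among the monocyte genes Ccr2 had 59 counts in mouse 27 and 12, 10 and 17 in the others, and Plac8 had 12 against 0, 2 and 0. Mouse 27 thus held the highest count of each of these genes. In CPM the kainate libraries overlapped with saline for Ms4a4b, Cd8a, Trbc2, Cd3e and Plac8 but not for Nkg7, Gzmb, Cd3g and Ccr2, although the lowest kainate count of Gzmb and of Cd3g, 1, equalled the highest saline count.

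Over all 4 mice the log2 fold change at day 14 was 2.10 for Ms4a4b (SE 0.57, adjusted p = 0.0216), 1.75 for Trbc2 (SE 0.72, adjusted p = 0.172) and 1.70 for Ccr2 (SE 0.54, adjusted p = 0.0561). Without mouse 27 these became 0.64, 0.84 and 0.84, each with an adjusted p of 1, and Plac8 turned from 1.66 (SE 1.24, adjusted p = 0.507) to -0.50. Ms4a4b became a DEG when mouse 36, 14 or 40 was left out (adjusted p = 0.00447, 0.00802 and 0.00667). The microglia genes were also highest in the EZ library of mouse 27, with a summed 2913 CPM against 530, 595 and 727 CPM in mice 36, 14 and 40. The monocyte list summed to 275 CPM in mouse 27 against 34.1, 39.9 and 38.3 CPM, and the granule cell genes to 435 CPM against 1009, 794 and 1339 CPM. The part of these in the lymphocyte counts was not tested. For Nkg7, Cd3g and Gzmb the exact p was 0.0286 at day 14, and it was 0.143 for Cd8a and 0.371 for Cd3e.

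In the PIZ no member was a DEG at any day, while 7.12% of all genes were upregulated at day 3, 0.15% at day 7 and 0.00935% at day 14. The monocyte genes were the nearest to the threshold at day 3. Ccr2 had 26, 40, 26 and 36 counts with kainate and 10, 7, 3 and 15 with saline, without overlap (log2 fold change 1.74, SE 0.51, adjusted p = 0.0123). Plac8 had 24, 6, 16 and 12 counts against 2, 0, 3 and 2, also without overlap (log2 fold change 2.83, SE 0.93, adjusted p = 0.0234). Ccr2 was a DEG when library sizes alone scaled the counts (adjusted p = 0.00932), with DESeq2 (0.00633), when only the compared groups were fitted (0.00908) and without mouse 44 (0.00997), and Plac8 was a DEG in the fit of the compared groups (0.00701). At an adjusted p under 0.05 both would be called, but Ccr2 stood above that in limma-voom (0.0683), with the mouse as a block (0.0677) and without mouse 18 (0.0539), and Plac8 without mouse 38 (0.0646), 37 (0.0707) or 41 (0.051). Ly6c2 had 159 to 245 counts with kainate and 152 to 227 with saline (log2 fold change -0.12, SE 0.24, adjusted p = 0.773).

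No lymphocyte gene passed the test in the PIZ, and their summed counts were above saline at day 7. Trbc2 had 4 to 8 counts with kainate and 1 to 9 with saline at day 3, and Ms4a4b had 1 to 6 against 1 to 2. At day 7 Ms4a4b had 5, 3, 3 and 4 counts with kainate and 0, 0, 1 and 2 with saline, which did not overlap but gave a log2 fold change of 1.99 with an SE of 0.94 (adjusted p = 0.319). Trbc2 summed to 15 counts over the 4 kainate libraries of day 7 and to 3 over the saline ones, a ratio of 4.39 with an exact 95% interval of 1.24 to 23.7 for counting error (log2 fold change 1.99, SE 1.06, adjusted p = 0.381). Cd3e, Cd3g, Cd8a, Nkg7 and Gzmb held 0 to 6 counts in every PIZ library. At day 7 Gzmb summed to 11 counts with kainate and 1 with saline, a ratio of 9.67 (1.40 to 416), and Cd3g to 8 and 0. Single libraries overlapped for both (exact p = 0.143 each). The 7 lymphocyte members together held 15 to 18 counts with kainate and 2 to 7 with saline at day 7, without overlap. They overlapped with 9 to 20 against 6 to 14 at day 3 and with 3 to 13 against 4 to 19 at day 14. These genes were chosen with earlier results of the data known, and how often sums of other genes separated was not computed. At an unadjusted p under 0.05, 2 members passed in the PIZ at day 3, 1 at day 7 and 0 at day 14, where 35.7%, 14.5% and 5.97% of all genes did.

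The 2 sides of the kainate-injected mice were then set against each other. At day 3 Ccr2 was higher in the EZ than in the PIZ of all 4 mice, with a log2 difference of 3.04 (SE 0.44, adjusted p = 2.54e-05), and it was the 1 member called, where 5.04% of all genes were higher in the EZ. Fitted on the compared groups alone, Ccr2 missed the threshold (adjusted p = 0.0119), and 77 genes in all were called. Ms4a4b, at 1.80 (SE 0.62, adjusted p = 0.0284), missed the threshold and passed it in an edgeR fit with a term for each mouse (adjusted p = 0.00733). At day 7 all 5 tested members were higher in the EZ, where 18% of all genes were. The log2 differences were 2.94 for Ccr2 (adjusted p = 5.59e-06), 3.25 for Plac8 (4.05e-04), 2.81 for Ms4a4b (1.00e-04), 2.28 for Trbc2 (0.00389) and 0.79 for Ly6c2 (0.00661). Ly6c2 was higher in the EZ of 3 of the 4 mice and missed the threshold without the filter (adjusted p = 0.0139). The calls of Ly6c2, Trbc2 and Plac8 were lost without mouse 26 (adjusted p = 0.0244, 0.0259 and 0.0102), those of Ly6c2 and Trbc2 without mouse 35 (0.038 and 0.0125), that of Ly6c2 without mouse 21 (0.0817) and that of Trbc2 without mouse 23 (0.0137). On the compared groups alone 2 of the 5 calls remained, Ccr2 (0.00441) and Ms4a4b (0.00329). At day 14 Ms4a4b alone was called (log2 difference 2.87, adjusted p = 0.00403), where 2% of all genes were, and without mouse 27 it was not (1.73, adjusted p = 0.752). It was not called on the compared groups alone (adjusted p = 0.702) or in limma-voom (0.203), which called 0 genes in all at day 14.

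**Figure D3:**
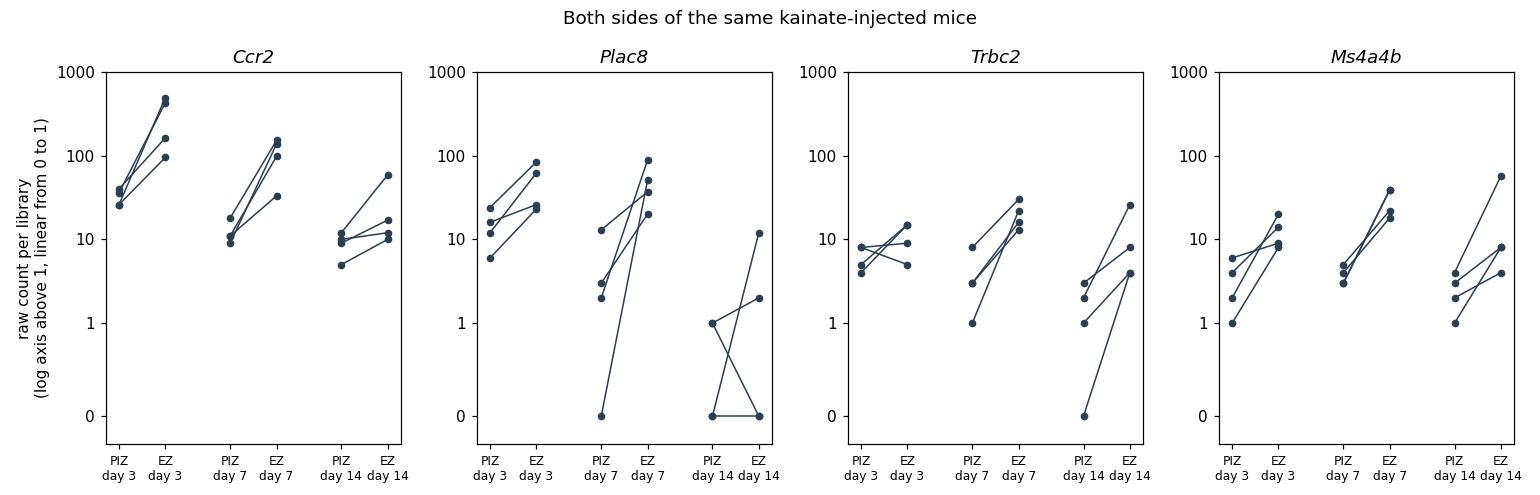
Raw counts of Ccr2, Plac8, Trbc2 and Ms4a4b in the PIZ and EZ of the same kainate-injected mice, joined by a line for each mouse, at 3, 7 and 14 days on the x axis. The y axis is logarithmic above 1 and linear from 0 to 1. Every line rises from PIZ to EZ for Ccr2 and Ms4a4b at all 3 days, and the highest EZ point of day 14 in each panel is mouse 27.

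Whether kainate acted more strongly in the EZ than in the PIZ was tested as the difference of the log2 fold changes. Ccr2 at day 7 was the 1 member called, with a difference of 2.68 (SE 0.73, adjusted p = 0.00772) against a background of 9.89% of genes in either direction. That call was lost when mouse 26, 89, 33, 21, 35, 20 or 34 was left out (adjusted p = 0.0108, 0.0182, 0.019, 0.0502, 0.0197, 0.0308 and 0.0204) and held only without mouse 23. At day 3 the difference was 2.08 for Ccr2 (SE 0.70, adjusted p = 0.121) and no member was called, where 0.0655% of all genes were, and at day 14 no member was called, where 0% of all genes were. At an unadjusted p under 0.05, 2 members passed at day 3 and 2 at day 14, where 17.9% and 7.3% of all genes did. For Plac8 the difference at day 7 was 3.13 with an SE of 1.64 (adjusted p = 0.15), and for Trbc2 it was 2.36 with an SE of 1.74 (adjusted p = 0.314).

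Changes of the EZ effect over time called no member either from day 3 to day 7 (0.145% of all genes called) or from day 7 to day 14 (0.271%), and none changed in the PIZ from day 3 to day 7 (0.0234%). From day 7 to day 14 the effect on Trbc2 changed by -2.61 (SE 1.23, adjusted p = 0.133) and on Plac8 by -2.82 (SE 1.88, adjusted p = 0.294). The change for Ms4a4b was -0.94 (SE 0.86, adjusted p = 0.457), and without mouse 27 it was -2.40 and passed the threshold (adjusted p = 0.00818). At an unadjusted p under 0.05, 0 members passed from day 3 to day 7 and 1 from day 7 to day 14 in the EZ, and 1 in the PIZ, where 12%, 33.1% and 10.6% of all genes did.

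The balance of lymphocyte and monocyte counts in the EZ libraries is given next, as a description. The 7 lymphocyte members (Cd3e, Cd3g, Cd8a, Nkg7, Gzmb, Trbc2 and Ms4a4b) summed to 20 to 56 counts at day 3, 61 to 145 at day 7 and 21 to 195 at day 14 with kainate, with medians of 34.5, 82.5 and 30. In saline EZ libraries they summed to 3 to 15. Ccr2 and Plac8 together held 121 to 577 counts at day 3, 53 to 189 at day 7 and 12 to 71 at day 14 with kainate, with medians of 338, 188 and 14.5, against 7 to 32 in saline. The lymphocyte members thus made up 7.37% to 14.2% of the counts of both sums at day 3, 25.3% to 53.5% at day 7 and 60.5% to 73.9% at day 14, without overlap between the days. The saline share was 18.8% to 50% at day 3, 28.6% to 41.2% at day 7 and 30% to 62.5% at day 14, so the kainate range lay below the saline range at day 3 and overlapped with it at days 7 and 14. Both patterns depended on leaving out Ly6c2, whose counts are uncertain and high in saline. With Ly6c2 in the monocyte sum, chosen after seeing the data, the kainate share was 4% to 6.56% at day 3, 10.7% to 21.1% at day 7 and 11.3% to 34.2% at day 14, so days 7 and 14 overlapped. The saline share was then 2.33% to 6.35%, 2.82% to 5.61% and 2.36% to 8.07%, which overlapped with kainate at day 3 and lay below it at days 7 and 14. No test was made of this share, since the genes in it were chosen with earlier results of the data known.

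**Figure D4:**
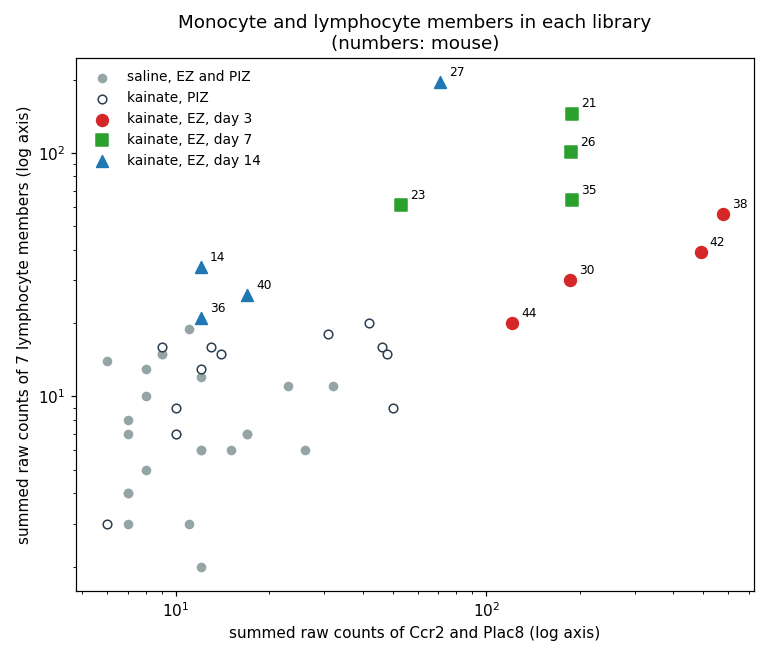
Summed raw counts of the 7 lymphocyte members (y axis, log scale) against those of Ccr2 and Plac8 (x axis, log scale) in each of the 48 libraries, with EZ kainate libraries in colour and numbered by mouse. The day 3 libraries lie at 121 to 577 monocyte counts and 20 to 56 lymphocyte counts, the day 7 libraries at 53 to 189 and 61 to 145, and mouse 27 stands apart at day 14 with 71 and 195.

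Correlations between the members across libraries are a description only, since libraries share mice and groups. Over the 12 EZ kainate libraries log2 CPM correlated between Ccr2 and Plac8 with r = 0.87, between Ccr2 and Ly6c2 with r = 0.89 and between Trbc2 and Ms4a4b with r = 0.86. Between a lymphocyte and a monocyte gene r was lower there, with 0.26 for Ms4a4b and 0.38 for Trbc2 against Ccr2, 0.54 and 0.55 against Plac8 and 0.60 and 0.61 against Ly6c2. Over all 48 libraries these 6 pairs ranged from 0.40 to 0.70, the 3 pairs of monocyte genes from 0.69 to 0.86, and Trbc2 with Ms4a4b stood at 0.73, so the ranges met. The tested genes most like the mean of Ccr2, Ly6c2 and Plac8 over all 48 libraries were Ly6a (r = 0.96), Tgm2 (0.95), Ms4a6d, Ddost and Tpm4 (each 0.94). Those most like the mean of Trbc2 and Ms4a4b were Tcstv4 and Tap2 (each 0.87), Rgs3, Gm2a and Adam33 (each 0.86).

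Further genes of monocytes, T cells and cytotoxic cells were taken from lists that did not include the members. Their counts stand beside the 16.1%, 20.6% and 2.32% of all genes upregulated in the EZ at days 3, 7 and 14 and 7.12% in the PIZ at day 3. In the same comparisons 1841, 2547, 8 and 335 of the 21390 genes were downregulated. Without mouse 27, 7 genes (0.0327% of all) were upregulated in the EZ at day 14, and every list gene called at that day but Itgax lost its call. Of 15 monocyte genes 13 were tested, and 11 were upregulated in the EZ at day 3, 11 at day 7 and 4 at day 14 (Cd44, S100a4, Ms4a4c and Cybb, 0 without mouse 27), with medians of 3.09, 3.64 and 1.26 on the log2 scale where the median of all genes was 0.03, 0.01 and 0.00. Cd44, an adhesion receptor that astrocytes also express, was the most abundant and rose at day 3 by 3.83 (SE 0.64, adjusted p = 8.77e-06), and Itga4, the next, did not pass at 0.17 (SE 0.33, adjusted p = 0.707). Ms4a4c, a relative of Ms4a4b and a monocyte gene, had 29 to 119 counts with kainate and 0 to 8 with saline at day 3 (log2 fold change 3.75, SE 0.59, adjusted p = 3.97e-06). In the PIZ at day 3 Cd44, S100a4 and Ms4a4c were upregulated and Itga4 downregulated (log2 fold change -1.24, SE 0.34, adjusted p = 0.00638), and no gene of the list changed there later.

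Of 20 T cell genes 12 were tested, and 3 were upregulated in the EZ at day 3 (Cd28, Cd5 and Cd6) and 5 at day 7 (these with Cd4 and Cd247), where 16.1% and 20.6% of all genes were, with list medians of 0.39 and 1.01. Cd28, the co-stimulatory receptor, rose by 3.99 at day 3 (SE 0.77, adjusted p = 6.35e-05) and 4.97 at day 7 (SE 0.79, adjusted p = 2.10e-06). Cd4, which macrophages and microglia can also express, rose by 4.01 at day 7 (SE 0.72, adjusted p = 1.40e-05), and Cd247, the zeta chain of the receptor complex, by 2.41 (SE 0.56, adjusted p = 3.58e-04). Zap70, a kinase of T cell receptor signalling and the most abundant gene of the list here, was downregulated in the EZ (-1.43, SE 0.33, adjusted p = 4.58e-04) and the PIZ (-1.39, SE 0.32, adjusted p = 0.00152) at day 3. Lck, the next, did not pass in the EZ at day 3 (0.27, SE 0.24, adjusted p = 0.38). At day 14 no T cell gene passed, with a median of 0.54.

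Of 15 cytotoxic genes 7 were tested. Klrk1 is an activating receptor of natural killer and T cells, and Ctsw is a protease of cytotoxic lymphocytes. Both were upregulated in the EZ at day 3 and, with Il2rb, at day 7. Thus 2 and 3 of 7 were higher, where 16.1% and 20.6% of all genes were. At the same days 2 and 1 were lower, where 1841 and 2547 of 21390 genes were. Ctsw rose by 1.81 (SE 0.58, adjusted p = 0.00994), 2.41 (SE 0.60, adjusted p = 7.58e-04) and 2.96 (SE 0.67, adjusted p = 0.00526) at days 3, 7 and 14, and it was the 1 gene of the list called at day 14 (2.04, adjusted p = 0.536 without mouse 27). Eomes, a transcription factor of cytotoxic cells and also of neuronal progenitors in the dentate gyrus, fell by 2.77 at day 3 (SE 0.62, adjusted p = 4.03e-04), and Gzmk fell by 3.42 (SE 0.70, adjusted p = 1.26e-04) and, at day 7, by 2.02 (SE 0.54, adjusted p = 0.00167). No cytotoxic gene was called in the PIZ.

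Genes of other leukocytes were read from lists in the same way, beside the same 16.1% and 20.6% of all genes at days 3 and 7. Of 4 tested neutrophil genes Mmp8, a granule collagenase, was upregulated in the EZ at day 3 (5.75, SE 1.13, adjusted p = 1.10e-04) and day 7, and Csf3r at days 7 and 14 (0.98, adjusted p = 0.347 at day 14 without mouse 27) and in the PIZ at day 3, while S100a9 stood at 1.84 (SE 0.86, adjusted p = 0.0752) at day 3. Of 5 tested B cell genes Cd22, which microglia also express, Cd79b and Pax5 were upregulated in the EZ at days 3 and 7 and Cd22 alone at day 14 (2.19, adjusted p = 0.245 without mouse 27) and in the PIZ at day 3, whereas Ighm, the most abundant, was at -0.78 (SE 0.43, adjusted p = 0.131) and 0.51 (SE 0.42, adjusted p = 0.307). Of 6 dendritic cell genes 4 were upregulated at day 3, among them Itgax (3.62, SE 0.53, adjusted p = 1.41e-06) and Zbtb46 (1.49, SE 0.28, adjusted p = 4.10e-05), and Flt3 was downregulated (-0.99, SE 0.26, adjusted p = 0.002). The others were Clec9a and Ccr7, and at day 7 these with Itgax were again upregulated and Flt3 downregulated (-1.16, SE 0.26, adjusted p = 2.91e-04). Itgax stayed a DEG at day 14 without mouse 27 (2.67, adjusted p = 0.00914). In the PIZ Itgax was a DEG at day 3 and day 7 (3.61 at day 7, SE 0.61, adjusted p = 0.0013), and its day 7 call was lost without mouse 26, 33, 34 or 89. Of 7 tested genes of border macrophages, which sit along vessels and meninges, 4 were upregulated in the EZ at day 3 (Pf4, Clec4n, Cbr2 and Ms4a7) and 5 at day 7, among them Ms4a7 (4.72, SE 0.83, adjusted p = 1.97e-05 at day 3) and at day 7 Mrc1 (1.14, SE 0.33, adjusted p = 0.00376).

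Blood and surrounding tissue could carry leukocyte RNA into a dissected piece, so their markers were read beside the members. None of 5 red blood cell genes, among them Hbb-bs and Hba-a1, was called in any comparison of kainate with saline. Their summed level was 111 to 252 CPM with kainate and 176 to 213 CPM with saline in the EZ at day 3. In the PIZ at day 3 it was 118 to 151 CPM with kainate, below the 168 to 237 CPM with saline. Of 6 meningeal and fibroblast genes, 5 were upregulated in the EZ at days 3 and 7 (Pdgfra, Col1a1, Col1a2, Dcn and Lum) and none elsewhere, with summed levels of 116 to 415 and 80.1 to 350 CPM with kainate against 70.2 to 97.7 and 65.9 to 74.7 CPM with saline. Dcn, a matrix proteoglycan of fibroblasts, was at 2.31 at day 3 (SE 0.71, adjusted p = 0.00738), and Pdgfra, which oligodendrocyte precursors also express, at 0.99 (SE 0.21, adjusted p = 1.93e-04). None of the 6 was at 0 in a group, and their part in the member counts was not tested. Of 3 tested choroid plexus genes Kl was downregulated in the EZ at days 3 and 7 (-1.50, SE 0.38, adjusted p = 0.00147 at day 3), and Ttr, the other abundant one, was not called. Of 7 granule cell genes 4 were downregulated in the EZ at day 3 (Tdo2, Calb1, Dsp and Dgkh) and 4 at day 7 (with Plk5 in place of Dsp). Tdo2 and Calb1 were also downregulated in the PIZ at day 3. Among all 21390 genes 1841, 2547 and 335 were downregulated in these comparisons. The EZ summed levels were 377 to 829 and 164 to 975 CPM against 1085 to 1301 and 927 to 1435 CPM in saline.

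Resident immune genes and the signals that recruit leukocytes rose in the same libraries. Of 10 microglia genes 6, 10 and 6 were upregulated in the EZ at days 3, 7 and 14, and 9 in the PIZ at day 3, where 16.1%, 20.6%, 2.32% and 7.12% of all genes were. Without mouse 27, whose library held most of the microglia signal of day 14, 0 of them were called at that day. Of 8 genes that all leukocytes and microglia share, 7, 8 and 7 were upregulated in the EZ, as were 7 in the PIZ of day 3, among them Laptm5 (1.62 in the EZ at day 3, SE 0.38, adjusted p = 6.37e-04), whereas Coro1a passed at day 7 alone (0.60, SE 0.12, adjusted p = 8.33e-05). Of 12 chemokine and adhesion genes 10, 12 and 7 were upregulated in the EZ, as were 5 in the PIZ of day 3 (Cxcl10, Selplg, Icam1, Cxcl16 and Ccl12). Without mouse 27 both lists had 0 calls at day 14, and the chemokine and adhesion genes summed to 387 CPM in its EZ library against 66.8, 79.1 and 80.9 CPM in mice 36, 14 and 40. Vcam1, which holds leukocytes at the vessel wall, rose by 2.42 in the EZ at day 7 (SE 0.29, adjusted p = 3.56e-08), and Selplg, a selectin ligand, by 2.10 (SE 0.27, adjusted p = 5.92e-08).

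Ccl2, the main ligand of Ccr2, was chosen after its values were seen. It was upregulated in the EZ at day 3 by 4.19 (SE 0.78, adjusted p = 4.17e-05), at day 7 by 5.58 (SE 0.90, adjusted p = 2.59e-06) and at day 14 by 4.70 (SE 1.10, adjusted p = 0.00641), the last of which was 1.79 without mouse 27 (adjusted p = 1). Cxcl9, which attracts activated T cells and was chosen in the same way, was at 1.99 (SE 1.09, adjusted p = 0.133) at day 3 and rose by 3.86 (SE 0.83, adjusted p = 2.00e-04) at day 7 and 5.89 (SE 1.15, adjusted p = 0.00194) at day 14, where it was 3.86 without mouse 27 (adjusted p = 0.286).

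Omission of other mice also moved list counts. At day 14 the 6 microglia calls became 0 when saline mouse 24, 28, 31 or 39 was left out, the 4 monocyte calls 1, and the 7 calls of shared leukocyte genes 1 or 2. The 7 chemokine and adhesion calls became 2 without mouse 24, 4 without mouse 28 and 0 without mouse 31 or 39. Cd22 and Csf3r lost their calls of that day without mouse 31 or 39, and Ctsw without mouse 24, 28, 31 or 39. In the EZ at day 3 the B cell calls fell from 3 to 1 without mouse 18, 37 or 38, and the upregulated cytotoxic genes from 2 to 1 without mouse 18 or 29 and to 0 without mouse 37, 38, 41 or 42. The upregulated dendritic cell genes went from 4 to 2 without mouse 37, and Flt3 lost its call without mouse 30 or 38. The meningeal calls went from 5 to 2 without mouse 38, and the granule cell calls from 4 to 1 without mouse 38 and to 2 without mouse 30 or 41. In the EZ at day 7 the meningeal calls went from 5 to 3 and the granule cell calls from 4 to 1 without mouse 21 or 35, and the border macrophage calls from 5 to 3 without mouse 35. In the PIZ at day 3 the microglia calls went from 9 to 4 without mouse 18, the chemokine and adhesion calls from 5 to 3 without mouse 37, 42 or 44, and Zap70 lost its call without mouse 18 or 44. Itga4 lost its call there without mouse 18, 29, 30, 37, 38, 41 or 44. Some omissions added calls. Among these, up to 9 microglia, 9 chemokine and adhesion, 5 monocyte, 2 cytotoxic and 1 border macrophage genes were upregulated in the EZ at day 14. In the PIZ up to 2 chemokine and adhesion genes and 1 B cell gene were upregulated at day 7. At day 3 up to 1 T cell gene and 1 border macrophage gene were upregulated there.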

How the data were processed

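RNA from the dentate gyrus was sequenced as stranded poly-A libraries. The authors trimmed paired reads with fastp 0.20.1, aligned them with HISAT2 2.2.1 to GRCm39 and counted them by strand on Gencode M28 genes with featureCounts of Subread 1.6.4, and they deposited raw counts per gene and library, without normalization. A read with several alignments was counted at its primary alignment, which affects Ly6c2 and Trbc2. Gene positions came from Gencode M39, which held 98.9% of the 55357 identifiers.

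From these counts CPM were computed, and edgeR 4.0.16 in R 4.3.3 (filterByExpr, TMM, quasi-likelihood test) was fitted with 1 mean per group to all 48 libraries, with Benjamini-Hochberg adjustment over the 21390 genes of a comparison. A DEG had an adjusted p under 0.01 and a fold change above 1.5. The SE is the log2 fold change divided by the square root of F. Members below the filter were compared with two-sided exact permutation tests of CPM. Correlations used log2 CPM with a prior count of 2. The members and lists were chosen with earlier results of these data known. All members were named, from each list its 2 most abundant genes and all called genes where at most 5 were called in some comparison, and the 5 genes most like the members. Alternatives were DESeq2 1.42.0, limma-voom (limma 3.58.1), other scaling, no filter, only the compared groups, a mouse block, close copies summed and omission of each mouse, which for the lists was added after the data were seen. EZ and PIZ libraries with the same number came from the same mouse, and their residuals correlated at -0.054 to 0.376, with a median of 0.208. The fit was checked on simulated data.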

Additional observations from a re-analysis of the deposited data

Results flagged for a closer look

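Groups of 4 libraries in which a member reached at least 10 counts were searched for a library far from the others by the ratio of its gap to the range of the group, the Dixon ratio, at its 95% critical value. Of 43 such groups 6 had one. The critical value gives about 1 in 20 by chance in groups not chosen by their values, but here a group could enter through its highest library alone, so that rate does not apply. Of the 6, 4 are the same library of mouse 27. In the EZ of day 14 mouse 27 stood apart for Nkg7 (0.956, 24 counts), Gzmb (0.919, 18 counts), Ms4a4b (0.924, 57 counts) and Ccr2 (0.905, 59 counts). In the EZ of day 7 mouse 21 stood apart for Cd3g (0.862, 14 counts). In the saline PIZ of day 14 mouse 39 stood apart for Trbc2 (0.914, 13 counts), with 0, 1 and 1 counts in the others. The kainate effect on Ccr2 differed between EZ and PIZ at day 7 by 2.68 on the log2 scale (SE 0.73, edgeR adjusted p = 0.00772), the 1 difference between regions that passed among the members. It was lost in 7 of 8 omissions of 1 mouse (adjusted p = 0.0108 to 0.0502), without the filter (0.0124) and in limma-voom (0.0499).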

How the results depend on the processing

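In the EZ the count of members called at day 3 was 3 and became 5 at an adjusted p under 0.05. At day 7 it was 4 and became 7 without the filter and 7 with DESeq2, and it was 4 in each omission of 1 mouse. At day 14 it was 0 and became 1 at an adjusted p under 0.05, 1 without the filter and 1 with close copies summed (chosen after seeing the data), and 0 to 1 with a mouse left out. In the PIZ at day 3 it was 0 and became 2 at an adjusted p under 0.05, 1 with library sizes only, 2 with the compared groups only, 1 with DESeq2, and 0 to 1 with a mouse left out. Between the sides of kainate mice it was 1 at day 3 (3 at an adjusted p under 0.05, 0 with the compared groups only, 2 with close copies summed), 5 at day 7 (2 with the compared groups only, 2 to 4 with a mouse left out) and 1 at day 14 (2 at an adjusted p under 0.05, 2 without the filter, 0 with the compared groups only, 0 with limma-voom, 0 to 1 with a mouse left out, 0 being without mouse 27). For the difference between regions at day 7 it was 1 and became 0 without the filter, 0 with limma-voom and 0 to 1 with a mouse left out, and for the change from day 7 to day 14 it was 0 and became 0 to 1, 1 being without mouse 27. The cause was not tested. The summed value of Ms4a4b holds more counts of Ms4a4c than of Ms4a4b in most EZ kainate libraries, so the calls gained with close copies summed do not bear on Ms4a4b.

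For comparisons between the sides the mouse block was an edgeR fit with a term for each mouse. In that fit the count between the sides at day 3 became 2, since Ms4a4b passed. For kainate against saline the block was made in limma-voom. At day 3 in the EZ Trbc2 passed with that block and in limma-voom without it. The block changed no other count of members by over 1.5 times. Several values turned sign: Ly6c2 in the EZ at day 14 (-0.27 to 0.30 with a mouse left out), in the PIZ at day 3 (-0.29 to 0.00) and at day 7 (-0.10 to 0.15, and -0.06 with close copies summed), Ccr2 in the PIZ at day 7 (-0.21 to 0.21), Plac8 in the EZ at day 14 (-0.50 to 2.19) and in the PIZ at day 7 (-0.06 to 2.41) and day 14 (-1.35 to 0.46), and Trbc2 in the PIZ at day 14 (-1.78 to 1.04). None of these was called. Of all alternative values of single members, 649 kept direction and side of the threshold, 23 gained a call, 21 lost one and 12 turned sign. Depth limits the 5 members below the filter, at 0 to 3 counts in every saline library.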
